A study of Mus musculus and Rattus norvegicus with 26 samples.

Results

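Intronic sequence of 10 genes for cardiac transcription factors was followed through 6 lists of cytoplasmic intron-sequence retaining transcripts (CIRTs), transcripts in which a stretch of an intron is found in the RNA of a cell or of its processes. The members were chosen by name, as the contigs whose gene symbol was Gata4, Gata6, Tbx5, Tbx20, Mef2a, Mef2c, Nkx2-5, Hand2, Meis1 or Zfpm2. A contig is a run of intronic reads that lie close together. The members held 74 of the 112345 contigs, 73 of them in mouse, and 7 of the 10 genes were in at least 1 list, out of 13695 gene symbols in all.

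Each list pools the libraries of 1 condition, and all RNA went through 3 rounds of aRNA amplification, which starts from a poly(T) primer. The cardiomyocyte list (9 libraries) came from sorted ventricular cells of E14.5 transgenic mice on C57BL/6, which carry the Fucci reporter mAG-hGem under a CMV promoter. Brown adipose tissue (BAT, 6 libraries) was taken from the interscapular depot of CD-1 mice at E17.5, and its cells were picked by shape after collagenase treatment. The mouse neuron lists came from cultured hippocampal neurons of C57BL/6 embryos at E18, as single somas (3 libraries) and as batches of dissected dendrites (3 libraries), and the rat lists likewise from Sprague-Dawley embryos at E18 (3 soma and 2 dendrite libraries). The neurons were kept in culture for 14 days. The numbers of libraries are those of the labels, whereas the study's text counts fewer BAT cells and cardiomyocytes, and which libraries entered these pools cannot be seen. The somas and whole cells contained the nucleus. The lists do not separate the libraries, so that every value below is 1 pooled value per condition, there is no replicate check and no test was made. Intervals are 95% intervals for counting error alone. Amplified reads are not independent molecules, and the spread between cells is not in these intervals. Intervals that do not overlap therefore order the pooled values and not the conditions. A gene can be missing from a list because an upstream filter removed its introns, so that a missing gene is called not listed and gets no fold.

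The read count belongs to an intron and was taken once. The distinct introns of the lists held from 1007530 reads (rat dendrites) to 17858440 reads (BAT), with 12201042 in cardiomyocytes, 1855447 in mouse somas and 3086576 in mouse dendrites, and gene values are also given in RPM, the reads-per-million scale over all listed intronic reads of a list. A change in RPM can be a change in the number of cells with the sequence or in its amount per cell, which cannot be told apart in a pooled list. Markers of the labelled cells were present but not complete. Of 16 cardiomyocyte markers 13 were in the cardiomyocyte list (42653 RPM together), without Nppa, Nppb and Pln, against 9 in BAT (2102 RPM), 5 in mouse somas (1143 RPM) and 7 in mouse dendrites (1249 RPM). Of 12 brown adipocyte markers 10 were in the BAT list (9135 RPM), without Ppargc1a and Elovl3. Of 12 neuron markers 10 were in mouse somas (4008 RPM) and 8 in mouse dendrites (1395 RPM), without Map2 and Syn1 in either. Of 12 markers of fibroblasts, smooth muscle and endothelium 4 were in cardiomyocytes (296 RPM), 11 in BAT (241 RPM), 6 in mouse somas (791 RPM) and 9 in mouse dendrites (1098 RPM). The lists held 49.8% (cardiomyocytes), 82.0% (BAT), 47.3% (mouse somas) and 69.0% (mouse dendrites) of all genes in a mouse list. Markers of the other cells were also listed. Brown adipocyte markers were in the cardiomyocyte list (4 of 12, 328 RPM, Ucp1 and Cidea among them), the dendrite list (7, 429 RPM) and the mouse soma list (2, 2.16 RPM). Neuron markers were in BAT (7 of 12, 587 RPM) and in cardiomyocytes (3, 387 RPM). The part of such sequence in the members' counts was not tested.

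The 10 genes encode factors that act together in the forming heart. Gata4 and Gata6 are zinc finger proteins that bind GATA motifs, and Zfpm2 is their cofactor. Tbx5 and Tbx20 are T-box factors, Mef2a and Mef2c are MADS-box factors of muscle genes, Nkx2-5 and Meis1 carry homeodomains, and Hand2 is a basic helix-loop-helix factor of the ventricles. Mef2a and Mef2c are also known from neurons, where their activity follows synaptic input.

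The cardiomyocyte list held 5 of the 7 listed members (Mef2a, Gata6, Mef2c, Tbx20 and Tbx5), where 49.8% of the 12467 genes of the mouse lists were listed. The BAT list held 6 (82.0% of all genes), the mouse soma list 2 (47.3%) and the mouse dendrite list 5 (69.0%). In rat, Tbx5 was in the soma list (59.4% of 5712 genes) with 2 reads, and no member was in the dendrite list (78.5%). The number of reads differed more between the lists. The members held 54563 reads in cardiomyocytes (0.447% of the list), 34058 in BAT (0.191%), 1473 in mouse dendrites (0.0477%) and 251 in mouse somas (0.0135%). Of the BAT reads 26804 belonged to 1 contig of Nkx2-5, which is longer than the 400 nt that the study allowed in whole cells. With contigs of at most 400 nt in every list the members had 37691, 5301, 179 and 78 reads, in the same order. Of the 16 member introns in cardiomyocytes 11 had a log2 read count of at least 8 (68.8%, against 32.5% of all introns of that list). The same count was 5 of 17 in BAT (29.4% against 21.8%), 2 of 8 in dendrites (25% against 12.8%) and 0 of 4 in somas, where 13.2% of all introns reached it.

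**Figure D1:**
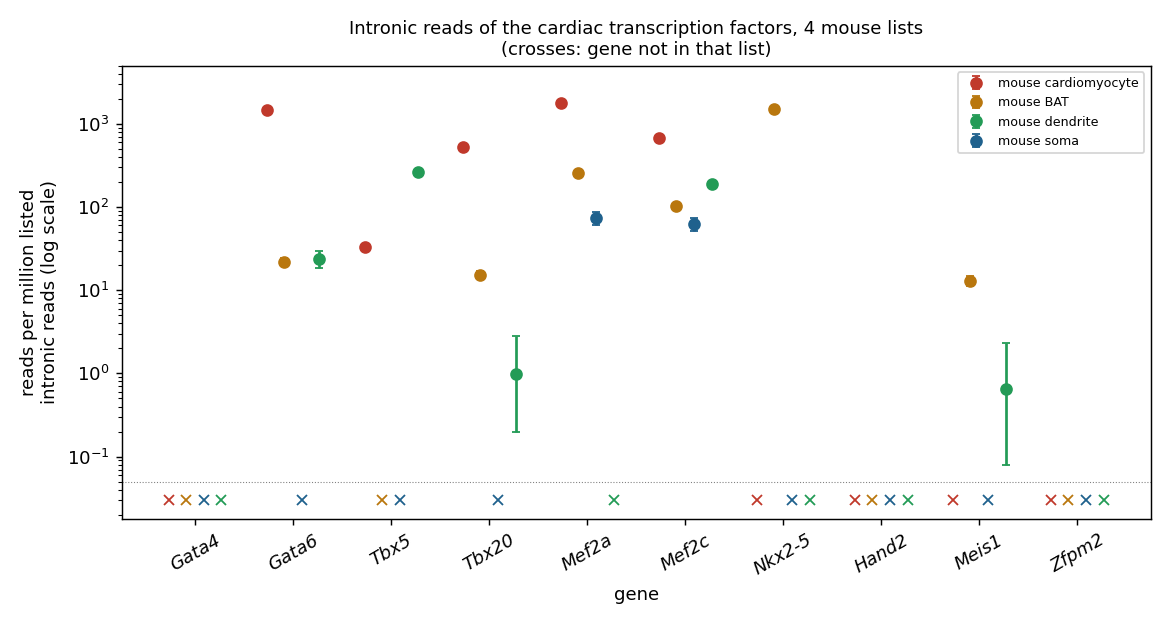
RPM (log scale) of the 10 genes in the 4 mouse lists, with 95% counting intervals; a cross at the foot marks a gene that is not in that list. Mef2a, Gata6, Mef2c and Tbx20 are highest in cardiomyocytes, Tbx5 is higher in dendrites over all its listed introns, Nkx2-5 appears in BAT alone among these lists, and Gata4, Hand2 and Zfpm2 have crosses throughout.

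Mef2a (NM_001033713 in the lists) had the most cardiomyocyte reads of the members, 21823 in 5 introns and 15 contigs, and ranked 77 of 6205 genes. It had 4536 reads in BAT and 136 in mouse somas and was not listed in mouse dendrites. This gave 1789 RPM (1765 to 1813) in cardiomyocytes, 254 RPM (247 to 261) in BAT and 73.3 RPM (61.5 to 86.7) in somas, and these intervals did not overlap. The gene lies on the minus strand of chr7:74376049-74517744 (mm9), and its contigs fell in introns 3, 4, 7, 8, 9 and 11 of the 11 introns of the GENCODE transcript Mef2a-002. Intron 4 led with 10979 reads over 6 contigs in cardiomyocytes and 4418 reads over 5 contigs in BAT. In cardiomyocytes intron 8 followed with 6292 reads, intron 9 with 2333, intron 11 with 1124 and intron 3 with 1095. In somas intron 8 had 84 reads (67.0 to 104) and intron 4 had 52 (38.8 to 68.2), and these intervals overlapped.

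Introns 4 and 8 of Mef2a were each in 3 mouse lists with contigs at the same place. In intron 8 the contigs of cardiomyocytes (chr7:74390427-74391277) and of BAT (chr7:74390427-74390972) ended at the same base, counted along the gene, while the soma contig (chr7:74390540-74392009) ended with 1 nt left before a run of 13 A. The other contigs went on for 99 nt past that run and ended at a run of 8 A. In intron 4 the soma contig (chr7:74416268-74416691) ended with 1 nt left before a run of 10 A, the BAT contig went on for 16 nt past it, and the cardiomyocyte contig of 2095 nt ran 1013 nt past it. The sequence around these soma contig ends is shown on the strand of the gene from mm9, with the A run in capitals, because the lists meet there.

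Mef2a intron 8, chr7:74390506-74390598, minus strand: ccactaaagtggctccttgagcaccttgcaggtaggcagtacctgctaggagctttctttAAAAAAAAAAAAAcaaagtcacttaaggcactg
Mef2a intron 4, chr7:74416237-74416326, minus strand: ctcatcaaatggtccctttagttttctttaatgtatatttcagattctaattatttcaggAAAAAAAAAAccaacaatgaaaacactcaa

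**Figure D2:**
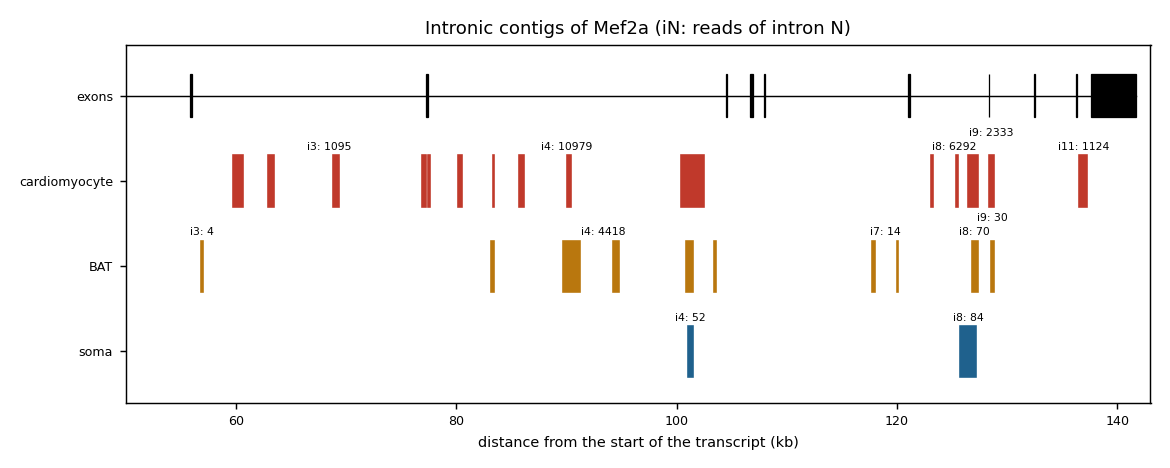
Contigs of Mef2a in the 3 mouse lists that hold it, with the exons of Mef2a-002 in black, against the distance from the start of the transcript in kb (the first 50 kb, without contigs, are left out); labels give each intron's number and reads. The cardiomyocyte row has 15 contigs, and the soma contigs of introns 4 and 8 lie over contigs of cardiomyocytes and BAT.

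Mef2c (NM_025282 and NM_001170537, chr13:83643033-83806684, plus strand) was the only member in all 4 mouse lists, with 8187 reads in cardiomyocytes, 1822 in BAT, 115 in somas and 587 in dendrites. As a share of the list this was 671 RPM (657 to 686), 102 RPM (97.4 to 107), 62.0 RPM (51.2 to 74.4) and 190 RPM (175 to 206). Cardiomyocytes were thus highest and dendrites second, and no interval overlapped another. Intron 3, of 17150 nt, was listed in every mouse list, with 8113 reads in cardiomyocytes, 572 in dendrites, 78 in somas and 61 in BAT. Cardiomyocytes, somas and dendrites shared a stretch of it: the soma contig of 573 nt (chr13:83721852-83722424) lay inside the dendrite contig of 1528 nt and the cardiomyocyte contig of 1014 nt, whereas the BAT contigs overlapped none of them. BAT reads lay instead at the other end of the gene, with 1242 reads in intron 10 and 480 in intron 7.

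Introns 6 and 7 of Mef2c gave examples of contigs that ended at A runs. The cardiomyocyte contig of intron 6 (70 reads) closed with a run of 14 A and also touched an exon of another annotated Mef2c transcript. In somas the contig of intron 7 (37 reads) ended with 2 nt left before a run of 14 A. The whole intron 6 contig and the end of the intron 7 contig are given with these runs in capitals.

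Mef2c intron 6, chr13:83773255-83773510, plus strand: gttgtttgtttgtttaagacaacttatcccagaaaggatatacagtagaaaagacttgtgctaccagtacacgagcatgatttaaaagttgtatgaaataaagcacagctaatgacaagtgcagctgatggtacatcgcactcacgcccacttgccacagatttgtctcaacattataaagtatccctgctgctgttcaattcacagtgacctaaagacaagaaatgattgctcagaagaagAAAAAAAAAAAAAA
Mef2c intron 7, chr13:83777678-83777771, plus strand: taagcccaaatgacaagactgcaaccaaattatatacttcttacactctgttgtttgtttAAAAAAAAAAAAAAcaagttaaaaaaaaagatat

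Gata6 (NM_010258), on chromosome 18, had 17798 reads in cardiomyocytes, 394 in BAT and 73 in mouse dendrites and was not listed in mouse somas. The RPM were 1459 (1437 to 1480), 22.1 (19.9 to 24.4) and 23.7 (18.5 to 29.7), so that cardiomyocytes stood apart and BAT and dendrites overlapped. Intron 6, of 19523 nt, held 13172 of the cardiomyocyte reads in 1 contig of 688 nt, and intron 4 held 4349 in 1 contig of 386 nt that began at the base after exon 4. The dendrite reads all belonged to intron 6, over 4 contigs, and the first of these, of 643 nt, lay inside the cardiomyocyte contig. In intron 3 the contigs of cardiomyocytes (34 reads, 104 nt) and BAT (10 reads, 99 nt) both began at the base after the exon and stopped with 3 and 8 nt left before a run of 28 A. Gata4, its closest relative here, and Zfpm2, the partner of both, were in no list. The annotated transcript of Gata4 has 43.0 kb of introns and that of Zfpm2 has 348 kb, and among protein-coding genes with introns 18.4% of those with 20 to 100 kb and 13.9% of those over 300 kb were in no mouse list.

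Tbx20 (NM_194263, chr9:24527648-24578746, minus strand) had 6353 reads in cardiomyocytes, 272 in BAT and 3 in mouse dendrites, or 521 RPM (508 to 534), 15.2 RPM (13.5 to 17.2) and 0.972 RPM (0.200 to 2.84). These intervals did not overlap, and mouse somas did not list the gene. Intron 3 carried 6049 of the cardiomyocyte reads, and its longer contig took 2180 nt of an intron of 3878 nt. BAT had 36 reads in intron 3, with both contigs overlapping the cardiomyocyte contig, but most of its reads (220) in intron 1, where the lists did not overlap. Cardiomyocytes also had 302 reads in intron 5.

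Tbx5 (NM_011537) had different introns in its 2 main lists. It had 402 reads in cardiomyocytes and 808 in mouse dendrites, which is 32.9 RPM (29.8 to 36.3) against 262 RPM (244 to 280). BAT and mouse somas did not list it. Of the dendrite reads 722 lay in intron 8, which the cardiomyocyte list does not hold, and 43 each in introns 2 and 3. In intron 3, held by both lists, cardiomyocytes had 32.9 RPM and dendrites 13.9 RPM, so that the order of the sums rests on intron 8. The contigs of these last introns flanked exon 3: between the exon and each contig lay 1 nt. In cardiomyocytes all 402 reads belonged to a contig of 74 nt in intron 3 that began at the first base after the same exon and covered the dendrite contig.

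**Figure D3:**
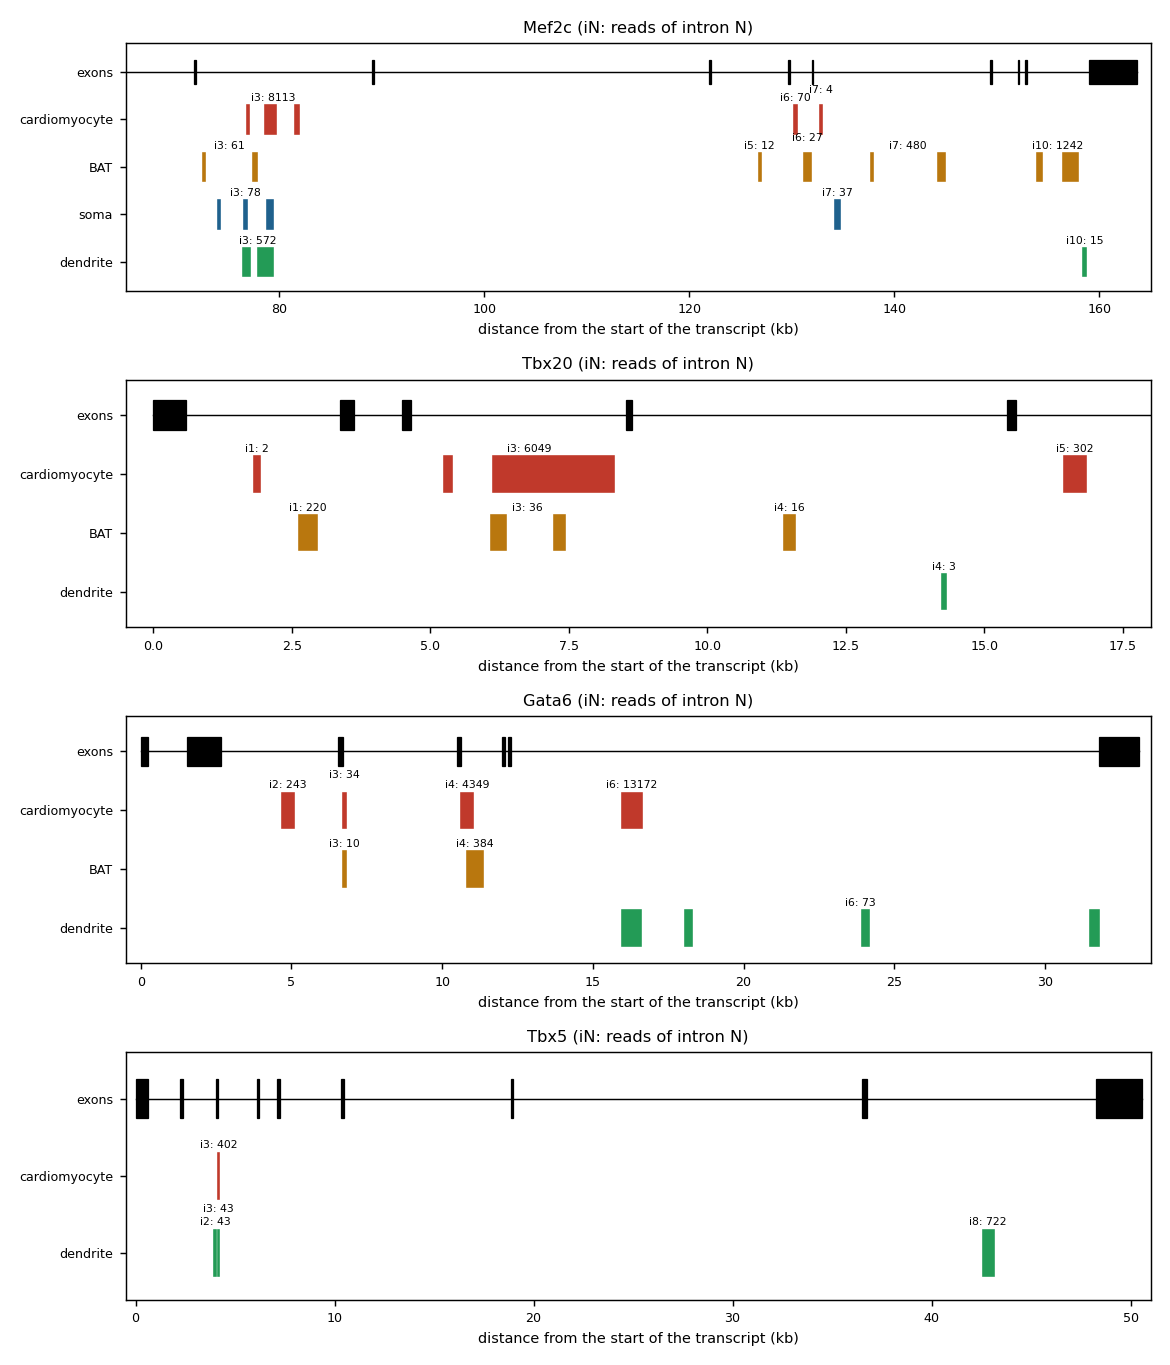
Contigs of Mef2c, Tbx20, Gata6 and Tbx5 by mouse list, with exons in black, against the distance from the start of the transcript in kb (Mef2c before 65 kb and Tbx20 after 18 kb, without contigs, are left out); labels give intron numbers and reads. Mef2c intron 3 is marked in all 4 lists, Gata6 intron 6 in cardiomyocytes and dendrites at the same place, and the Tbx5 contigs of introns 2 and 3 stand on either side of exon 3.

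Nkx2-5 (NM_008700), a founding factor of the heart field, was not in the cardiomyocyte list. Among the 6 lists it was in BAT alone, with 26804 reads in its 1 intron (1501 RPM, 1483 to 1519), rank 101 of the 10220 genes there. The contig, chr17:26976593-26977383 on the minus strand, took 791 nt of an intron of 1377 nt and ended where exon 2 begins. Its intron ranked 75 of 30018 in the list. The listing rests on this 1 contig, which is longer than the 400 nt that the study allowed in whole cells, so that under its rule Nkx2-5 is in none of the lists. Cardiomyocyte markers in the same BAT list ranged from 4 reads each for Myl2 and Actc1 and 8 for Myh6 to 12481 for Actn2 and 13572 for Nebl, and Myh7, Tnnt2, Tnni3, Nppa, Nppb, Myl7 and Pln were not listed. Their part in the Nkx2-5 count was not tested. The last 120 nt of the contig are printed with the AG before exon 2 in capitals.

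Nkx2-5 intron 1, chr17:26976593-26976712, minus strand: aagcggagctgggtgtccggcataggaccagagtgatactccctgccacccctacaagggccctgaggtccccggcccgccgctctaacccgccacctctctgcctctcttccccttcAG

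Meis1 (NM_010789), a homeodomain partner of Hox proteins, had 230 reads in BAT and 2 in mouse dendrites (12.9 and 0.648 RPM), both in intron 1 of its 12 introns. The dendrite contig of 204 nt lay inside the BAT contig of 711 nt, and the contigs ended 9 nt (BAT) and 7 nt (dendrites) past the same run of 9 A, in capitals here. Hand2 was in no list. Its transcript has 1 intron of 1300 nt, and 71.8% of the protein-coding genes with less than 5 kb of introns were in no mouse list.

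Meis1 intron 1, chr11:18917069-18917157, minus strand: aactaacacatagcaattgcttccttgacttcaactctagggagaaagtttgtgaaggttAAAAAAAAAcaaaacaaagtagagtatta

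Levels of different genes were set side by side per kb of contig. In cardiomyocytes Gata6 was highest with 924 RPM per kb of contig (910 to 938), followed by Tbx5 with 445 (403 to 491), Mef2c with 340 (333 to 348), Mef2a with 217 (214 to 220) and Tbx20 with 185 (180 to 189), and no neighbours overlapped. The place of Tbx5 rests on 402 reads over 1 contig of 74 nt beside an exon. In RPM, without division by length, Tbx5 was the lowest of these genes (32.9). In BAT Nkx2-5 stood at 1897 (1875 to 1920) and the other members between 15.9 (Tbx20) and 52.2 (Mef2a), with Meis1 (18.1) and Tbx20 overlapping. In dendrites Tbx5 had 380 (355 to 408) and Mef2c 74.1 (68.2 to 80.3). There Tbx20 with 13.9 (2.86 to 40.6) overlapped both Gata6 with 16.3 (12.8 to 20.5) and Meis1 with 3.18 (0.385 to 11.5), which did not overlap each other. Mef2a (38.7) and Mef2c (37.0) overlapped in somas.

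The share of listed reads in cardiomyocytes was compared with the other mouse lists, first over introns in which the contigs of both lists overlapped. A count is that of the whole intron, so that it also holds reads of the intron outside the overlap. Mef2a was 6.35 times as high in cardiomyocytes as in BAT (6.15 to 6.56) in introns 4, 8 and 9, and 19.3 times as high as in somas (16.3 to 23.0) in introns 4 and 8. Intron 4, with most of its BAT reads, stood at 3.64 times BAT and intron 8 at 132 times. Mef2c was 15.8 times as high as in somas (12.7 to 20.03) and 3.59 times as high as in dendrites (3.30 to 3.91), both in intron 3, and had no overlap with BAT. Gata6 was 16.3 times as high as in BAT (14.7 to 18.1) in introns 3 and 4, and 45.6 times as high as in dendrites (36.3 to 58.3) in intron 6. Tbx20 was 246 times as high as in BAT (177 to 351, on 36 BAT reads) in intron 3 and shared no intron with dendrites. Tbx5 was 2.37 times as high as in dendrites (1.72 to 3.32) in intron 3.

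By this measure 3 of 3 members were at least 4-fold higher in cardiomyocytes than in BAT, 2 of 2 than in somas and 1 of 3 than in dendrites, and 0 were at least 4-fold lower. Of all genes compared in the same way 31.5% (BAT), 24.7% (somas) and 35.3% (dendrites) were at least 4-fold higher and 23.5%, 30.4% and 28.4% at least 4-fold lower. The medians over these genes were 1.25 (3070 genes, BAT), 0.895 (1618 genes, somas) and 1.33 (1680 genes, dendrites). Introns held by both lists without overlap did not all go the same way. Intron 1 of Tbx20 had 2 reads in cardiomyocytes and 220 in BAT, and intron 7 of Mef2c had 4 reads in cardiomyocytes, 480 in BAT and 37 in somas.

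Sums over all listed introns of a gene also add introns that only 1 of the lists holds, and the covered length differs with them, so that these ratios describe the lists and are no folds of the same sequence. For Gata6 the sum in cardiomyocytes was 66.1 times that in BAT (59.8 to 73.2), with 13172 of its 17798 cardiomyocyte reads in intron 6, which BAT did not list, and with 1579 nt of contigs against 650 nt. Tbx20 stood at 34.2 times (2818 nt against 959 nt), Mef2a at 7.04 times (8257 nt against 4870 nt) and Mef2c at 6.58 times (1972 nt against 4451 nt, most BAT reads being in intron 10). The median of the 5442 genes in both lists was 0.801, and 28.3% of them were at least 4-fold higher. Against somas these sums gave 24.4 times for Mef2a and 10.8 times for Mef2c (26.2% of genes at least 4-fold higher). Against dendrites they gave 61.7 times for Gata6, 3.53 times for Mef2c and 536 times for Tbx20 (183 to 2598, on 3 dendrite reads in an intron that cardiomyocytes did not list), with 26.5% of all genes at least 4-fold higher. For Tbx5 the sum was lower in cardiomyocytes, 0.126 times that of dendrites, opposite to the value in the overlapping intron. Of all genes in both lists 34.3% (BAT), 37.0% (somas) and 39.7% (dendrites) were at least 4-fold lower in cardiomyocytes. The medians were 0.706 against somas and 0.580 against dendrites. These comparisons share the cardiomyocyte list.

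The study kept contigs of at most 400 nt in somas, BAT cells and cardiomyocytes and contigs of any length in dendrites, whereas all contigs were kept above. With the limit in all lists most of the overlapping contigs of the members were gone. Most ratios of sums then set different introns or stretches against each other. For Gata6 cardiomyocytes kept introns 3 and 4 (4383 reads), BAT 10 reads in intron 3 and dendrites intron 6, with ratios of 722 and 22.6. For Mef2c cardiomyocytes kept introns 3, 6 and 7 and dendrites 15 reads in intron 10, with a ratio of 205, and the ratios to BAT (24.4) and somas (19.96) were also without a shared stretch, as was that of Tbx20 to dendrites (797). Mef2a over BAT (6.78) and Tbx5 over dendrites (1.76, from 0.126) kept overlapping contigs. Gata6 over BAT kept them in intron 3 alone, where cardiomyocytes stood at 4.98 times BAT (34 and 10 reads), so that its 722 rests on intron 4. With dendrites left without a limit, the ratios to dendrites were 9.22 for Mef2c and 0.329 for Tbx5, and 39.7 for Gata6 and 1401 for Tbx20, which then had no intron in common. Under the limit Nkx2-5 and Meis1 left the BAT list and Mef2a left the soma list. Contigs over 400 nt were 31 of the 73 member contigs (42.5%) and 32.4% of all mouse contigs.

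**Figure D4:**
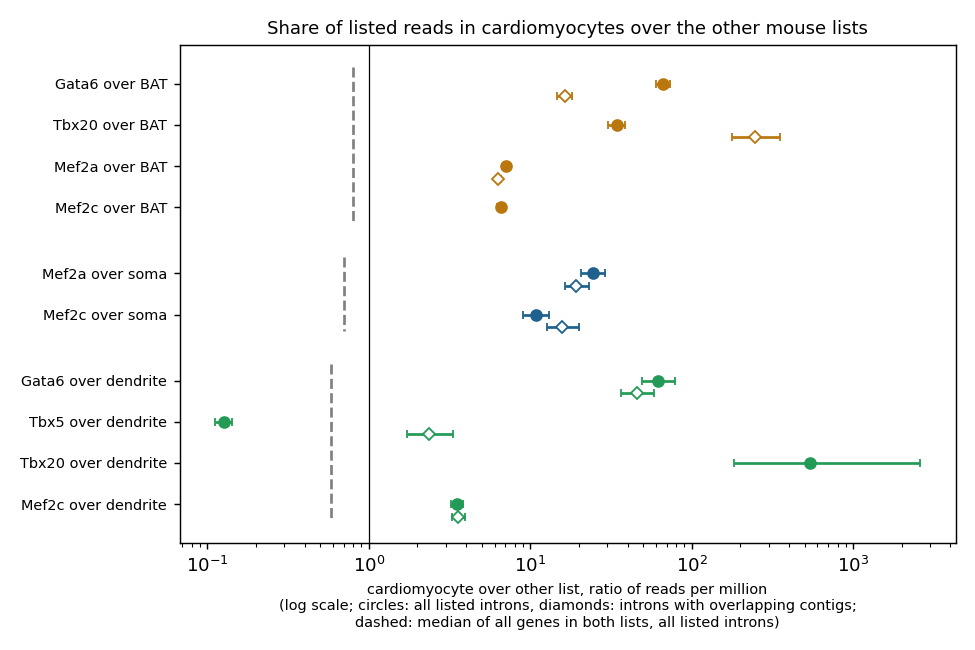
Share of listed reads in cardiomyocytes over that in BAT, soma or dendrite lists (log scale) for members in both lists, from all listed introns of the gene (circles) or from the introns whose contigs overlap between the lists (diamonds), with 95% counting intervals; dashed lines mark the median of all genes for the circles, and the solid line a ratio of 1. The diamonds lie from 2.37 to 246, while the circle for Tbx5 over dendrites lies below 1; Mef2c over BAT and Tbx20 over dendrites have no diamond.

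The same introns recurred between lists. Of the 24 member introns in the mouse lists 16 were in more than 1 list (66.7%, against 39.5% of 46599 introns of all genes). Once an intron was shared, its contigs overlapped about as often as in other genes: 10 of the 16 had overlapping contigs (62.5% against 64.5% of shared introns). The shared introns without overlap were Mef2a intron 3, Mef2c introns 6, 7 and 10, and Tbx20 introns 1 and 4.

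The members' contigs lay in introns of the gene itself, and 2 of 73 touched an annotated exon, both of other transcripts of the same gene (Mef2a and Mef2c), against 7.76% of all mouse contigs. None lay inside another annotated gene, but no share over all mouse contigs is given for this, so that it is no trait of the members. Contigs within 1 nt of the exon on their 5′ side were 7 of 73 (9.59% against 12.1% of all), and on their 3′ side 4 (5.48% against 14.3%). A run of at least 10 A within 30 nt of the contig's 3′ end, on the strand of the gene, was found for 12 of the 73 contigs (16.4% against 12.04%), and of at least 8 A for 19 (26.03% against 16.4%). At the 5′ end 0 contigs had a run of 10 A (0.607% of all), while 4 had a run of 10 T (5.48% against 10.1%). The placement of A runs at 3′ ends was thus shared with the contigs of other genes. With any A or T run of at least 10 in the contig or 300 nt around it counted, the members were at 35.6% (26 contigs) and all mouse contigs at 40.9%.

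**Figure D5:**
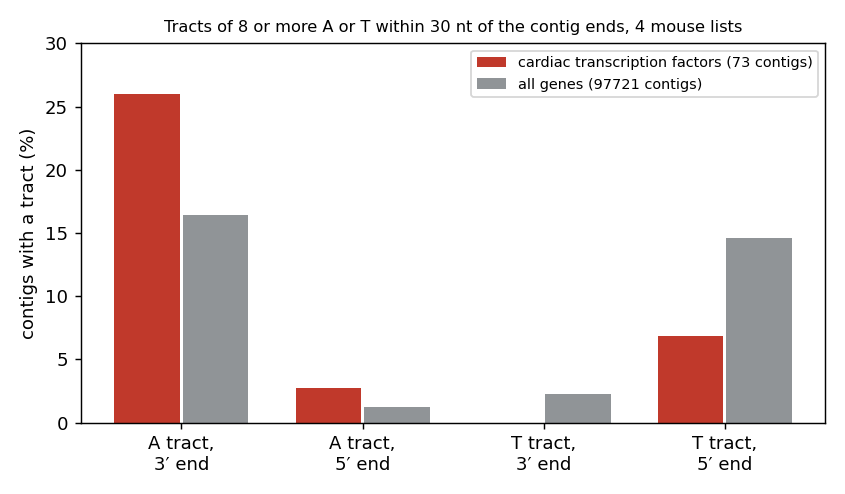
Percent of contigs in the 4 mouse lists with a run of at least 8 A or T touching the 30 nt around the 3′ or 5′ end, for the 73 member contigs (red) and all 97721 contigs (grey). The red bar for A at the 3′ end stands at 26.03% and the grey one at 16.4%; runs of T at the 5′ end are at 6.85% and 14.6%.

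Of 30 relatives and partners of these factors, 14 were in a mouse list and 15 in no list. Of the 28 annotated as protein-coding genes with an intron 14 were in a mouse list (50%), against 63.3% of all such genes. Of the 14 the cardiomyocyte list held 7 (49.8% of all genes in a mouse list), and those with an intron with a log2 read count of at least 8 included Myocd, a coactivator of Srf (12722 reads), Smyd1, a methyltransferase of muscle (2950), Hey2, a target of Notch (1699), and Pbx3, a homeodomain factor (645). Mef2b, Mef2d, Hand1, Isl1 and Gata5 were not listed there. BAT listed 9 (82.0% of all genes), among them Tead1 (397 reads) past that level, mouse somas 4 (47.3%), with Srf (308), and mouse dendrites 9 (69.0%), with Pbx3 (875). In rat dendrites Meis2 had 9281 reads, 9206 of them in intron 8.

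The pattern of Mef2a over the 4 mouse lists was most like that of Intu (882, 254 and 63.6 RPM in cardiomyocytes, BAT and somas), Heatr6 (785, 167 and 54.4 RPM) and Slc38a2 (574, 115 and 99.2 RPM), all absent from the dendrite list. Their Euclidean distances to Mef2a in log10(RPM + 1), over these 4 lists, were 0.313, 0.420 and 0.613. A gene that was not listed entered as 0 RPM, so that the likeness rests partly on absence from the dendrite list, which a filter can cause.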

How the data were processed

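Intronic reads of 26 aRNA-amplified libraries were analysed in 6 lists that the authors pooled by condition. The authors aligned the reads (mm9 and rn4 per the labels), counted intronic reads with a unique place, dropped introns that overlap predicted genes or poly(A) sites or hold junction reads alone, and joined nearby reads into contigs. The deposited counts are raw numbers of reads per intron, repeated on each contig. Here each count was taken once, introns of several transcripts with overlapping contigs were joined with the larger count, and counts were divided by the list's total. Python 3.11.15, pandas 2.3.3, numpy 2.4.6, scipy 1.17.1, pysam 0.24.0 and matplotlib 3.10.9 were used. Intervals (95%) are exact Poisson for a value and conditional exact binomial for a ratio. Coverage was tried for the ratio interval alone, on simulated Poisson counts. Such counts follow the interval's own model, so that this checks the calculation and not how well it holds for amplified reads. Reads without molecular identifiers are not independent molecules, so intervals cover counting error only. Strand was not recorded, so antisense RNA cannot be told apart. Mouse contigs were matched to NCBIM37 (mm9) with GENCODE vM1: 99.4% lay in an annotated intron of their gene. Rat introns were not analysed by position. Named were all 10 genes, their introns with a log2 read count of at least 8, relatives with such an intron, and the 3 genes most like Mef2a. Sequences followed contigs' place (ends at A runs, exons or overlaps), and were chosen after the values were seen. Members and lists were chosen with earlier results of these data known. All contigs were kept, whereas the study limited somas and whole cells to 400 nt. Alternatives changed introns compared, contig length, read minimum, counting, scaling, overlap and run length. The values of 1 relative and 1 sequence are not reported here.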

Additional observations from a re-analysis of the deposited data

How the results depend on the processing

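No paired analysis was possible because each condition is 1 pooled list, and for the same reason leaving out libraries was not possible. With contigs of at most 400 nt the members had 37691 reads in cardiomyocytes, 5301 in BAT, 78 in mouse somas and 179 in mouse dendrites, and 1 member was listed in mouse somas. The ratio of cardiomyocytes to BAT over the members in both lists, 11.3, was then 11.6, and that to dendrites moved from 5.63 to 41.1, since the largest dendrite introns of Mef2c and Tbx5 had contigs over the limit. Tbx5 over dendrites reversed from 0.126 to 1.76 under this limit and to 2.37 over introns in both lists, with or without the need for overlap. Over introns in both lists, chosen after the data were seen, the ratios for the members together were 10.03 to BAT, 15.4 to somas and 7.97 to dendrites, and with overlapping contigs alone, also chosen then, 8.89 to BAT and 7.97 to dendrites. With the limit in all lists but dendrites, chosen then too, the last was 8.69. Adding up the count on each contig gave 147602, 53563, 407 and 2264 reads in the same 4 lists. With at least 32 reads per intron 3 members were in mouse dendrites and 0 in rat somas. Without the 10 introns with the most reads the ratio to BAT was 11.7. Without Mef2a it was 19.0 to BAT and 10.8 to somas (18.2 with it). Runs of at least 8 bases gave 46 contigs with an A or T run nearby, and 19 with an A run at the 3′ end, a count chosen after the data were seen. A count of members, introns or contigs was taken as kept within 1.5 times its value (as for BAT, with 4 of 6 members under 400 nt), and reads and ratios within their 95% counting interval. By this, 25 of 49 alternatives for the summary values were kept and 24 moved, and for single genes 26 of 50 were kept, 21 moved and 3 reversed. Counts of 2 to 4 reads, as for Tbx20 and Meis1 in dendrites and Tbx5 in rat somas, limit what those values can show.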
